A study of Mus musculus with 5 samples.

Results

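Gpnmb-negative inflammatory macrophages are a class of complement-rich macrophages of the atherosclerotic aortic arch that held no read of Gpnmb, a glycoprotein of lipid-loaded foam cells, and at least 2 of the surface genes Fcrls, Cd72, Cd14 and Cd83. Their members were chosen on measured values of the same cells: C1qa and C1qb over 2 on the deposited natural-log scale, Csf1r or Adgre1 above 0, Gpnmb at 0, fewer than 2 of the interferon genes Rsad2, Cxcl10, Cxcl9 and Ifit1, and fewer than 3 of the cell cycle genes Mki67, Top2a, Birc5, Ube2c and Cenpf. This rule kept 1038 of 18260 cells. By library it kept 95 and 96 cells in the 2 Apoe-/- libraries and 289, 289 and 269 cells in the 3 Oasl1-/-Apoe-/- libraries.

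The cells came from the aorta between root and curvature of mice that all lacked apolipoprotein E and had been kept for 28 weeks on normal chow, which leaves them with atherosclerosis. The 2 Apoe-/- libraries carried intact Oasl1, labelled Oasl1+/+Apoe-/-, and the 3 Oasl1-/-Apoe-/- libraries carried a germline deletion of the Oasl1 promoter and exon 2, so every cell type of those mice was affected and not macrophages alone. Aortas of several mice were pooled, live cells were sorted with DAPI, and 3′ libraries were made by droplet capture. The comparison asks how macrophages of the lesion differ when OASL1, an oligoadenylate synthetase-like protein known to restrain interferon production, is lost.

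Tissue macrophages of the artery wall take up modified lipoproteins, present antigen and secrete cytokines and chemokines that draw in further leukocytes. In lesions they fall into a lipid-handling, foamy state marked by Gpnmb, Trem2 and Spp1, an inflammatory state that makes interleukin 1 beta and tumour necrosis factor, and an interferon-responding state. Interferon acts through a transcription factor complex that binds the interferon-stimulated response element, while NF-kappaB drives many cytokine and neutrophil-attracting chemokine genes.

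Short promoter stretches are printed for genes that carried the genotype comparison below, since they hold the letters of these response elements. The windows ran from 250 bases before to 50 bases after the RefSeq start in build GRCm38.p6, and 2 motifs were searched on both strands: GAAA, any 2 bases and GAAA, as in the interferon-stimulated response element, and GGGA, any 2 bases and TTCC, as in NF-kappaB sites. Both motifs were chosen with the results known. The interferon motif stood in 6 of the 13 promoters found for the 20 interferon genes that were higher in members labelled Oasl1-/-Apoe-/-, in 3 of the 12 found for the 12 MHC class I genes that were higher, and in 3.49% of all 27025 promoters. The NF-kappaB motif stood in 3 of the 12 promoters found for 13 inflammatory and chemokine genes that were lower, and in 1.43% of all promoters. Across the groups, the NF-kappaB motif also stood in 2 of the 13 interferon promoters and 1 of the 12 MHC class I promoters, and the interferon motif in 1 of the 12 promoters of lower inflammatory and chemokine genes. A match describes letters in the window and is not a measured binding site. In the stretches below, each 30 bases in the 5′ to 3′ direction of the gene, capitals mark the motif or its reverse complement.
Isg15 at chr4:156200877-156200906, minus strand: tatgccgtagGAAAAGGAAAccgaaacaga
Ifit3 at chr19:34583363-34583392, plus strand: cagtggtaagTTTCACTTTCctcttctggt
Oas1a at chr5:120907526-120907555, minus strand: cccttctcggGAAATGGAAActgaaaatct
Bst2 at chr8:71537583-71537612, minus strand: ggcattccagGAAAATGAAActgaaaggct
B2m at chr2:122147538-122147567, plus strand: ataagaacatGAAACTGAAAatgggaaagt
Nfkbia at chr12:55492657-55492686, minus strand: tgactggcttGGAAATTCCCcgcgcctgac
Cxcl1 at chr5:90891164-90891193, plus strand: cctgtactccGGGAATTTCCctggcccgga
Cxcl2 at chr5:90903792-90903821, plus strand: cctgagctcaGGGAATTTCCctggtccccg
The stretches of Cxcl1 and Cxcl2, neighbouring genes for neutrophil attractants, both held GGGAATTTCC, and neither of these genes held the interferon motif in its window.

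The libraries held 3212 to 4338 cells, with medians of 4495 to 5186.5 unique molecular identifiers (UMIs) per cell. Members were read at median depths of 4629 and 3456.5 UMIs in the Apoe-/- libraries and of 4699, 4604 and 4882 UMIs in the Oasl1-/-Apoe-/- libraries (exact two-sided permutation test over libraries, p = 0.2, smallest possible p 0.1). The second Apoe-/- library was the shallowest and held the most red cell RNA, with the 4 globin markers summing to 15.1 counts per 10000 UMIs (CP10K) against 1.57 in the other Apoe-/- library and 0.466 to 0.594 in the others. Between the Apoe-/- libraries the median absolute log2 difference of the members' tested genes was 0.355, against 0.180 to 0.186 among the Oasl1-/-Apoe-/- libraries. Of the members, 23 carried a barcode sequence also found in another library, and 1 barcode was shared by 2 members.

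Macrophage genes that the rule did not use were read alongside those that it did. Cd68, a lysosomal glycoprotein of macrophages, averaged 10.8 CP10K in Apoe-/- members and 10.5 in Oasl1-/-Apoe-/- members, and Aif1, a calcium-binding protein of macrophages, 6.02 and 7.84. In smooth muscle cells of the same libraries, chosen as cells with Myh11, Cnn1 and Acta2 and no Ptprc, Cd68 averaged 0.0844 and 0.0984 CP10K. Over all libraries, C1qc and Fcgr1 averaged 60.6 and 2.17 CP10K in members and 0.270 and 0.0152 in smooth muscle cells. Mrc1 was low in members, at 0.363 CP10K against 0.00345. Mertk, of the same macrophage list, went the other way, at 0.267 CP10K in members and 0.358 in smooth muscle cells. The pan-leukocyte gene Ptprc lay between 1.78 and 2.01 CP10K in members. Dendritic cell, T and NK cell, B cell, neutrophil and endothelial cell markers summed to less than 0.5 CP10K for each type in each library. Other lineages summed higher, with smooth muscle markers at 6.51 to 32.7 CP10K, fibroblast markers at 0.583 to 3.20 and red cell markers at 0.466 to 15.1. These values describe the cells selected and were not tested.

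The 4 genes used for selection were read in different shares of members. Because members needed at least 2 of them, these shares were set in part by the rule. Cd14, the lipopolysaccharide co-receptor, was read in 94.8% of Apoe-/- members (95% Wilson interval 90.6 to 97.1%) and 92.2% of Oasl1-/-Apoe-/- members (90.2 to 93.8%), and Cd83, an activation marker, in 87.4% and 88.3%. Cd72, a B cell and myeloid co-receptor, was read in 80.6% of Apoe-/- members (74.4 to 85.6%) and in 96.2% of Oasl1-/-Apoe-/- members (94.7 to 97.3%). Fcrls, an Fc receptor-like gene of microglia and resident macrophages, was read in only 39.3% and 35.3% of members. Gpnmb-positive macrophages, read more deeply at medians of 7191.5 and 7712 UMIs, held it in 33.2% and 40.7% of cells. Drawn down to 1000 UMIs in cells that held as many, the shares were 20.5% and 16.3% of members and 13.8% and 18.1% of Gpnmb-positive macrophages. The level of Fcrls was higher in members in each library, with means of 3.02 and 2.17 CP10K over the libraries. Only members had been selected on Fcrls. In smooth muscle cells, which should lack these genes, the shares lay between 0.261% and 2.79% at median depths of 4833 and 5175.5 UMIs, against member medians of 4109 and 4733 UMIs. Ms4a7, a tetraspanning gene of monocyte-derived macrophages that the rule did not use, ranged from 17.3 to 24.0 CP10K in members and from 18.1 to 24.3 CP10K in Gpnmb-positive macrophages. Intervals cover counting error only.

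Cells near the limits were few on some criteria and many on others. The lowest C1q value of a member was 2.01, and 33 cells outside had a lower value above 0. All 4 surface genes were read in 281 members, 3 of them in 582, and 2 of them in 175, while 78 cells stayed out for having 1. Exactly 1 interferon gene was read in 241 members and none in 797, and 100 cells stayed out for having 2. A single Gpnmb UMI kept out 142 cells that met all other conditions.

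Members made up 2.33% and 2.21% of all cells in the Apoe-/- libraries and 8.49%, 8.998% and 8.33% in the Oasl1-/-Apoe-/- libraries. Within the 2510 C1q-high macrophages, they made up 29.6% and 30.4% against 44.5%, 49.0% and 42.4%, with group means of 29.99% ± 0.555 and 45.3% ± 3.35 (SD). Gpnmb-positive macrophages held 59.5% and 60.4% against 33.7%, 31.2% and 31.1%. Interferon-high macrophages held 4.36% and 4.43% against 12.2%, 12.4% and 16.7%. These shares are given without a test because the rule decides who is counted, and the sort, the dissociation and the number of other cells recovered were not separated. Smooth muscle cells made up 68.2% of the cells of Apoe-/- libraries and 47.6% of those of Oasl1-/-Apoe-/- libraries. Members with exactly 1 of the 4 interferon genes were 12.6% and 11.5% of the Apoe-/- members and 22.5%, 28.4% and 26.4% of the Oasl1-/-Apoe-/- members. The interferon limit took the counts from 109 and 105 to 100 and 99 cells in the former libraries and from 364, 341 and 354 to 310, 296 and 288 in the latter. Without that condition the difference in the share of C1q-high macrophages was 21.1 percentage points in place of 15.3, and with none of the 4 interferon genes allowed it was 7.23. Gpnmb itself also differed between the labelled groups. It averaged 27.8 CP10K in Apoe-/- and 19.99 in Oasl1-/-Apoe-/- Gpnmb-positive macrophages, and 0.153 and 0.0507 in smooth muscle cells. Its part in the shares was not tested.

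**Figure D1:**
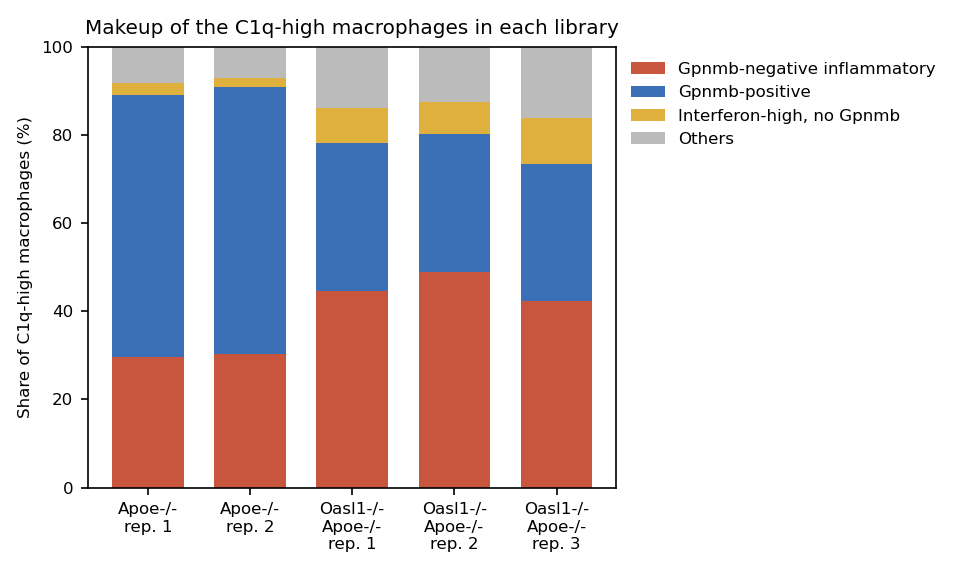
Stacked bars give the share of C1q-high macrophages (percent, vertical axis) that each class held in each of the 5 libraries, with interferon-high cells that carried Gpnmb counted as others. The Gpnmb-negative inflammatory class held 29.6% and 30.4% in the Apoe-/- libraries and 42.4% to 49.0% in the Oasl1-/-Apoe-/- libraries.

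Members were also described against Gpnmb-positive macrophages of the same libraries. That class had the same C1q, interferon and cell cycle limits but carried Gpnmb. Unlike members, it had no condition on Fcrls, Cd72, Cd14 and Cd83, so the classes differ by selection on these genes too. Of 2533 genes at 0.5 CP10K or more in either class and outside the rule, 781 were higher in members in all 5 libraries and 587 were lower. Because the cells were divided on their own genes, these are descriptions with no test. Gpnmb-positive macrophages were also read more deeply, with medians of 6919 to 8154 UMIs.

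Many inflammatory genes were higher in members. Il1b, the secreted cytokine processed by the inflammasome, averaged 19.7 CP10K over the libraries in members against 3.74 in Gpnmb-positive macrophages, and was higher by 1.90 to 3.34 on the log2 scale. Il1b was read in 60.2% of Apoe-/- members and 25.9% of Apoe-/- Gpnmb-positive macrophages, although the latter were deeper. Il1r2, the decoy receptor for interleukin 1, was higher by a median of 2.63, and Traf1, an adaptor of tumour necrosis factor receptors, by 1.96. Of the 20 inflammatory genes compared, 13 were higher in all 5 libraries and 0 were lower, with a median difference of 0.55. Against interferon-high macrophages, 3 of these genes were higher in all libraries and 2 lower, with a median of 0.04. Of all 2533 genes, 357 were higher and 170 lower in all libraries against that class. It held only 14 cells in each Apoe-/- library, and some of its cells carried Gpnmb. Counts against the 2 classes therefore differ in precision.

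Immediate early and antigen-presenting genes were higher too, in larger shares of their lists. Of 19 immediate early and stress genes, 18 were higher in members in all libraries (median 0.60), and of 7 MHC class II genes, 6 were higher and 1 lower (median 0.81). Ribosomal protein genes were higher for 57 of 77 and lower for 4, with a median of 0.15. Against interferon-high macrophages, 1 of the 19 immediate early and stress genes and 0 of the 7 MHC class II genes were higher in all libraries. Of all 2533 genes, 357 were. Mgl2, a C-type lectin of dermal and dendritic-like macrophages, was higher by a median of 2.67 and averaged 0.70 CP10K in members against 0.03. The resident-like list that holds Mgl2 leaned the other way. Of its 6 genes compared, 2 were higher and 4 lower in all libraries (median -0.44). Of 7 microglia genes, 5 were higher in every library and 1 was lower. Among the higher ones Tmem119, a microglial membrane protein, averaged 0.61 CP10K in members and 0.16 in Gpnmb-positive macrophages. Cx3cr1, the fractalkine receptor, was read in 33.0% and 33.4% of members against 13.6% and 19.5% of Gpnmb-positive macrophages. Lyve1, a marker of resident adventitial macrophages, was read in 0 of 191 Apoe-/- members, which allows a share of cells with a UMI of up to 1.57%, and in 4 of 847 Oasl1-/-Apoe-/- members. A limit on cells with a UMI does not limit the cells that express the gene.

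Lipid-handling genes were the main lower group. Of 19 measured, 17 were lower in members in all 5 libraries. Fabp5, a fatty acid-binding protein, averaged 2.72 CP10K against 46.7, Spp1, the secreted phosphoprotein osteopontin, 19.6 against 105, and Lpl, lipoprotein lipase, 2.72 against 9.40. The scavenger receptor gene Cd36 averaged 0.36 against 1.67, and the lysosomal protease genes Ctsl and Ctsd 2.81 against 19.1 and 16.1 against 60.5. Cd5l, a secreted survival factor of lipid-loaded macrophages, averaged 0.27 CP10K in members against 10.3 and had the largest difference among genes lower in every library, with a median of -5.02. Trem2, the lipid-sensing receptor, was not absent from members, at 8.88 to 10.2 CP10K against 17.4 to 19.0 CP10K.

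**Figure D2:**
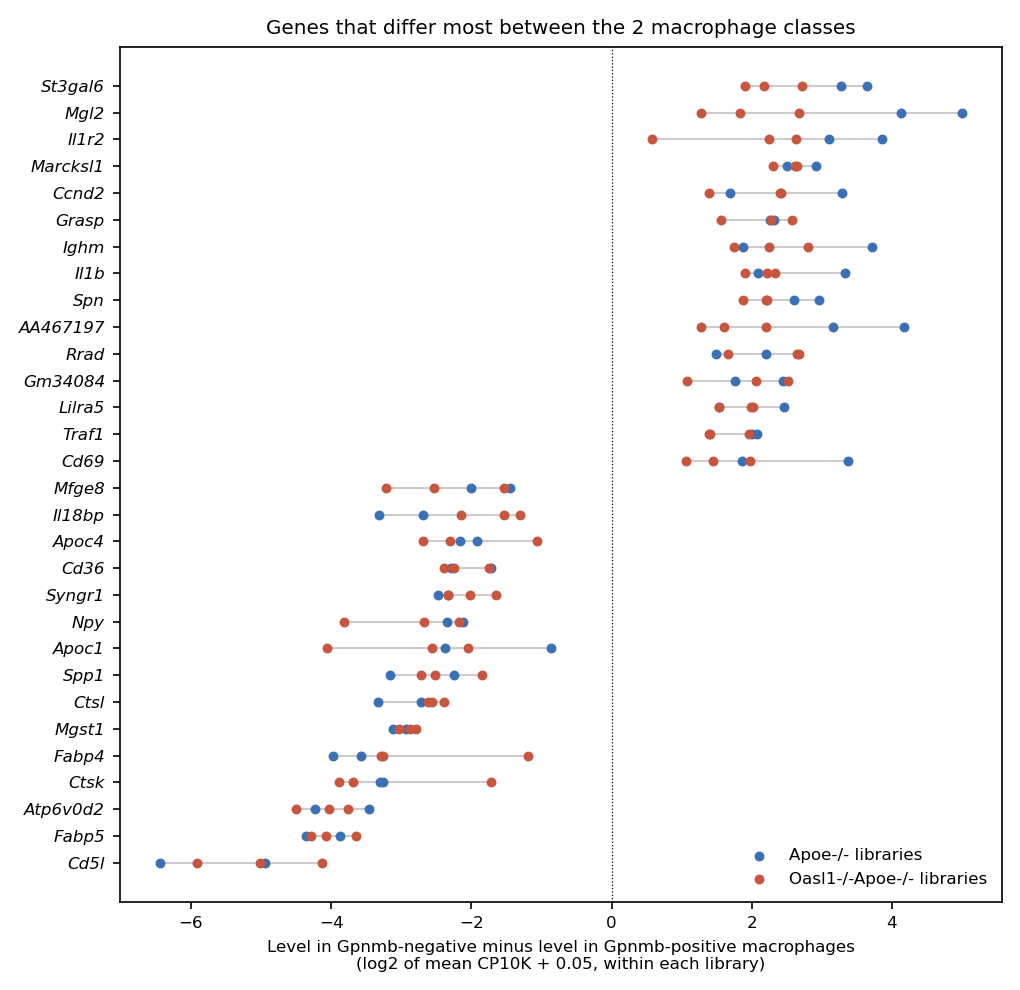
Each row is a gene and each point a library (blue, Apoe-/-; red, Oasl1-/-Apoe-/-), with the horizontal axis giving the level in Gpnmb-negative minus the level in Gpnmb-positive macrophages as log2 of mean CP10K plus 0.05. The 15 genes most raised by their median are above and the 15 most lowered below, from St3gal6 with a median of 2.71 to Cd5l with a median of -5.02.

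The genotype comparison was then made within members, with the library as the replicate. Of 6384 genes tested with limma, 216 passed an adjusted p of 0.05, or 3.38%. Of these, 128 were higher in members labelled Oasl1-/-Apoe-/- (2.01% of those tested) and 88 were lower (1.38%), and the median difference of all tested genes was -0.01 on the log2 scale. At an unadjusted p under 0.05 there were 1119 genes. The 2 groups of libraries did not overlap for 35.2% of tested genes, so non-overlap alone was common. Weighting summed UMIs with limma-voom gave 242 genes with 111 higher and 131 lower, a split that leaned the other way. Cells of 3000 to 10000 UMIs alone gave 289 with 141 higher and 148 lower, and median-of-ratios scaling gave 206 with 135 higher and 71 lower. A filter of 0.5 CP10K in place of 0.1 gave 205 of 2370 genes, with 108 higher and 97 lower. Leaving out Apoe-/- replicate 1 or 2 raised the count to 1178 or 988, and leaving out Oasl1-/-Apoe-/- replicate 1, 2 or 3 lowered it to 56, 86 or 76. Fold changes and differences below are on the scale of mean CP10K, the log2 differences after adding 0.05, which understates changes of low genes.

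Oasl1 itself (chr5:114923240-114937915, plus strand, GRCm38) was read at 0.0168 and 0.165 CP10K in Apoe-/- members and at 0.527, 0.426 and 0.507 in members labelled Oasl1-/-Apoe-/-. These stood for 7 and 204 UMIs, in 3.14% and 16.3% of members, and the libraries did not overlap. The transcript was thus higher in the libraries labelled as lacking it, by 2.16 ± 0.41 (SE) on the log2 scale (adjusted p = 0.0174, lost at 0.156, 0.0768 or 0.1 without Oasl1-/-Apoe-/- replicate 1, 2 or 3). A 3′ read outside the deleted promoter and exon 2 does not check the deletion, so Oasl1 reads leave the labels unchecked here.

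Type I interferon genes formed the largest group that rose. Of 37 listed genes, which excluded the rule genes, 31 were tested, and 20 were higher in members labelled Oasl1-/-Apoe-/-, 0 lower, and 11 not past the threshold, against 2.01% of all genes called higher. The median difference of the list was 1.29, against -0.01 for all tested genes. With a filter of 0.5 CP10K on low genes, 12 of 13 tested genes of the list were higher. Members with 2 or more of the rule's interferon genes had already been set aside, so the list describes cells that remained after that step. Requiring none of the 4 rule genes gave 15 calls and dropping the condition gave 21, while leaving out Oasl1-/-Apoe-/- replicate 1, 2 or 3 gave 10, 12 or 14.

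Ifi27l2a, an interferon-induced mitochondrial membrane protein, stood at 3.53 and 2.36 CP10K in Apoe-/- members and at 15.5, 14.9 and 15.6 in Oasl1-/-Apoe-/- members. The groups were far apart, with a fold of 5.21 and a log2 difference of 2.39 ± 0.14 (SE, adjusted p = 1.16e-05). Ifi27l2a was read in 39.8% of Apoe-/- and 90.2% of Oasl1-/-Apoe-/- members. Its share also differed in smooth muscle cells, at 3.99% and 34.2%, and the part that free RNA had in the member values was not tested.

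Ly6e, a surface protein of the Ly6 family, rose from 3.11 and 2.87 CP10K to 9.40, 9.39 and 8.96 (1.61 ± 0.09, adjusted p = 8.85e-06). Ifitm3, which blocks viral entry at membranes, rose from 4.46 and 2.76 to 13.9, 13.3 and 14.3 CP10K (1.96 ± 0.16, adjusted p = 8.52e-05). Xaf1, a proapoptotic interferon target, rose from 0.185 and 0.123 to 0.840, 0.907 and 0.811 CP10K (2.16 ± 0.20, adjusted p = 0.000327). Each of these 3 genes kept its call in all 21 alternatives run on it. Zbp1, a sensor of left-handed nucleic acid that can trigger necroptosis, rose from 0.253 and 0.112 to 1.43, 1.26 and 0.992 CP10K (2.51 ± 0.27, adjusted p = 0.00079). Ifi44 had 0 UMIs in both Apoe-/- libraries and was at least 5.84-fold higher in Oasl1-/-Apoe-/- members, taking 3 UMIs over the Apoe-/- group as the floor. It passed the filter on low genes only through the Oasl1-/-Apoe-/- libraries, and it counts among the interferon calls above.

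Ly6a, the stem cell antigen Sca-1 and an interferon-inducible Ly6 protein, had the largest rise of the genes named by size. It stood at 0.245 and 0.240 CP10K in Apoe-/- members and at 6.29, 4.80 and 5.36 in the others, a 22.6-fold difference (4.23 ± 0.14, adjusted p = 1.25e-07), called in all 21 alternatives. The rise was also one of more cells: Ly6a was read in 3.16% and 8.33% of Apoe-/- members and in 40.1%, 38.8% and 39.0% of Oasl1-/-Apoe-/- members. In smooth muscle cells it was read in 1.95% and 7.21%. AW112010, an interferon-inducible transcript annotated as a long noncoding RNA, rose from 0.645 and 0.571 to 4.18, 2.90 and 3.26 CP10K, and Gbp2, an interferon-induced guanylate-binding protein, from 0.0236 and 0.0666 to 0.797, 0.365 and 0.409. The Gbp2 call was lost with limma-voom (adjusted p = 0.0546).

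MHC class I genes rose together. Of 16 listed, 15 were tested, 12 were higher and 0 lower, with a median difference of 0.98, against 2.01% of all genes called higher. B2m, the light chain of class I molecules, stood at 45.4 and 44.1 CP10K in Apoe-/- members and at 93.6, 82.4 and 84.4 in Oasl1-/-Apoe-/- members, a 1.94-fold difference (0.95 ± 0.06, adjusted p = 2.13e-05). The heavy chain gene H2-D1 rose from 20.8 and 21.3 to 45.6, 38.8 and 40.4 CP10K, and H2-K1 from 7.11 and 8.0 to 15.3, 13.7 and 14.7. H2-Q7, a nonclassical class I gene whose reads can be divided among close copies, rose from 0.268 and 0.413 to 1.45, 1.12 and 1.29. These 4 genes kept their calls in all 21 alternatives, and the count of the list fell to 8, 10 or 8 without Oasl1-/-Apoe-/- replicate 1, 2 or 3.

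MHC class II genes moved less. Of 9 tested, only Cd74, the invariant chain, and Ctss, the protease that trims it, passed, with both higher, against 2.01% of all genes called higher. Cd74 stood at 196 and 204 CP10K against 254, 242 and 269 (0.35 ± 0.05, adjusted p = 0.00443, and 0.0523 without Oasl1-/-Apoe-/- replicate 1, with up to 0.160 over the stricter choices of members). Ctss stood at 41.0 and 37.8 against 50.3, 48.1 and 50.3 CP10K, with adjusted p-values of 0.135, 0.0606 and 0.109 when replicate 1, 2 or 3 of Oasl1-/-Apoe-/- was left out. H2-Aa, a class II alpha chain, stood at 67.7 and 74.9 against 75.1, 73.8 and 83.0 CP10K, which overlapped (adjusted p = 0.417).

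**Figure D3:**
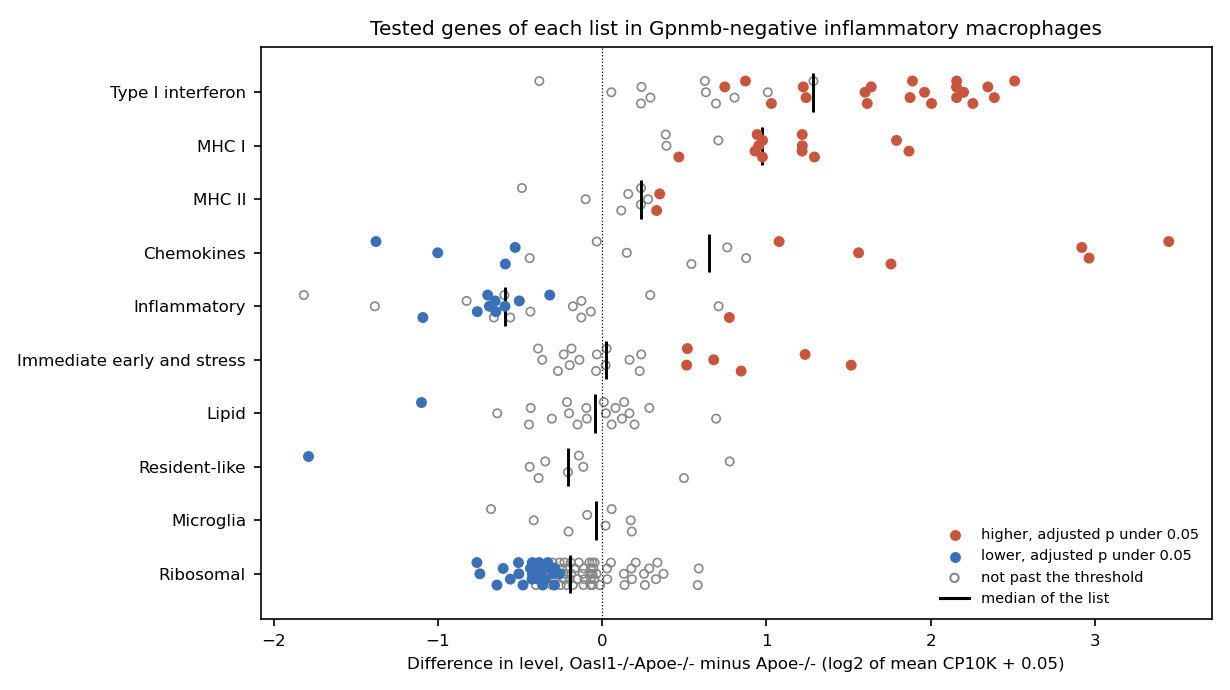
Each point is a tested gene of a list, placed on the horizontal axis by its difference between genotypes in members (log2 of mean CP10K plus 0.05), filled where limma's adjusted p was under 0.05 (red higher, blue lower), with a black line at the median of the list. Interferon genes centre on 1.29 and MHC class I genes on 0.98, while inflammatory genes centre on -0.59 and ribosomal protein genes on -0.20.

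Inflammatory genes went mainly the other way. Of 25 listed genes, 23 were tested, 9 were lower in members labelled Oasl1-/-Apoe-/-, 1 was higher and 13 did not pass, against 1.38% of all genes called lower, and the median difference was -0.59. The summed level of the list was 99.4 and 109 CP10K in Apoe-/- members and 70.2, 78.1 and 71.3 in the others. The count of lower genes was 1, 4 or 2 without Oasl1-/-Apoe-/- replicate 1, 2 or 3, and 15 or 12 without Apoe-/- replicate 1 or 2.

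Il1b stood at 24.2 and 28.1 CP10K in Apoe-/- members and at 13.6, 17.4 and 15.4 in Oasl1-/-Apoe-/- members. The groups did not overlap, and Il1b was 1.69-fold higher in Apoe-/- members (-0.76 ± 0.11, adjusted p = 0.00313), a call kept in all 21 alternatives. The share of members with Il1b was 58.9% and 61.5% against 52.6%, 55.4% and 55.8%, at group median depths of 4109 and 4733 UMIs. Drawn down to 1000 UMIs in cells that held as many, it was 45.2% and 54.3% against 38.0%, 42.3% and 44.0%. As a fold, the mean level differed by more than either set of shares. Tnf, tumour necrosis factor, stood at 4.83 and 4.09 against 2.98, 3.10 and 2.73 CP10K (-0.59 ± 0.11, adjusted p = 0.0175), with adjusted p-values of 0.129, 0.0760 and 0.116 without replicate 1, 2 or 3 of Oasl1-/-Apoe-/-.

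Targets and regulators of NF-kappaB were among the others that fell. Tnfaip2, a cytokine-induced membrane-remodelling protein, fell from 2.65 and 3.96 to 1.48, 1.65 and 1.36 CP10K (-1.09 ± 0.17, adjusted p = 0.00531, and 0.0657 without Oasl1-/-Apoe-/- replicate 1). Ier3, an early response gene of survival signalling, fell from 3.30 and 3.22 to 1.92, 2.11 and 1.94 CP10K, with adjusted p-values of 0.0780 and 0.0546 without replicate 1 or 3. The other genes lower were Gadd45b, Bcl2a1b, the inhibitor gene Nfkbia, the inflammasome sensor gene Nlrp3 and the NF-kappaB subunit gene Relb. Nlrp3 stood at 1.61 and 1.63 against 0.934, 1.03 and 1.08 CP10K. Il1rn, the secreted antagonist of the interleukin 1 receptor, was the 1 gene that rose, from 1.31 and 0.883 to 1.91, 1.81 and 1.92 CP10K (0.77 ± 0.16, adjusted p = 0.0311), and its call was lost at 0.203, 0.136 and 0.146 without replicate 1, 2 or 3 of Oasl1-/-Apoe-/-.

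The interleukin 1 decoy receptor gene Il1r2 fell with Il1b. It stood at 1.11 and 0.764 against 0.283, 0.172 and 0.392 CP10K (-1.60 ± 0.29, adjusted p = 0.0138, and 0.106 without Oasl1-/-Apoe-/- replicate 1). Il1r2 was read in 14.1% of Apoe-/- members (95% Wilson interval 9.90 to 19.8%) and 7.79% of Oasl1-/-Apoe-/- members (6.17 to 9.79%). These intervals pool the cells of a group's libraries, cover counting error only and are no test of genotype. Il1a, the alarmin form of the cytokine, stood at 1.396 and 0.443 against 0.230, 0.283 and 0.312 CP10K and did not pass (adjusted p = 0.079).

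Chemokines moved in both directions. Of 18 listed, 16 were tested, 6 were higher and 4 lower, against 2.01% and 1.38% of all tested genes. Those higher were Ccl2, Ccl5, Ccl6, Ccl7, Ccl8 and the B cell attractant Cxcl13, and those lower were Ccl3, Cxcl14 and the neutrophil attractants Cxcl1 and Cxcl2. The sum over all 18 was 142 and 126 CP10K in Apoe-/- members and 133, 120 and 139 in the others, which overlapped. Without Oasl1-/-Apoe-/- replicate 1, 2 or 3, 4, 5 or 4 chemokines were higher and 0, 1 or 1 lower.

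Among attractants of monocytes, Ccl2 rose from 2.53 and 2.20 to 7.47, 6.55 and 7.22 CP10K (1.56 ± 0.11, adjusted p = 2.13e-05), and Ccl7 from 3.39 and 1.996 to 10.9, 6.22 and 10.5 (1.76 ± 0.25, adjusted p = 0.00348). Ccl8 rose from 0.322 and 0.573 to 6.26, 3.98 and 5.67 CP10K, an 11.9-fold difference (3.45 ± 0.23, adjusted p = 2.13e-05). These 3 calls held in all 21 alternatives. Ccl5, an attractant of T cells and monocytes, rose from 0.168 and 0.135 to 2.23, 2.11 and 0.735 CP10K (2.97 ± 0.39, adjusted p = 0.00221, and 0.109 with limma-voom).

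Ccl8 came from few cells. It was read in 5.26% and 7.29% of Apoe-/- members and in 15.9%, 20.1% and 17.1% of Oasl1-/-Apoe-/- members, and the 5% of Oasl1-/-Apoe-/- members richest in Ccl8 held 84.9% of its UMIs. In smooth muscle cells it was read in 0.192% and 1.32%. Ccl2 was spread more widely, in 24.6% of Apoe-/- and 43.0% of Oasl1-/-Apoe-/- members.

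Ccl8-containing members carried less Il1b. Taking members of 3000 to 10000 UMIs, Il1b averaged 3.73 CP10K in 36 cells with Ccl8 and 13.3 in 188 without it in Oasl1-/-Apoe-/- replicate 1, 9.84 in 50 and 20.1 in 178 in replicate 2, and 9.24 in 41 and 14.2 in 183 in replicate 3. The Apoe-/- libraries had 4 and 6 such cells with Ccl8, at 21.3 and 9.13 CP10K of Il1b against 26.9 and 28.9 in those without. Ccl2 ran with Ccl8 in the Oasl1-/-Apoe-/- libraries, at 9.96, 9.67 and 14.95 CP10K with it and 6.15, 6.28 and 3.47 without it. Mrc1, the mannose receptor of tissue-resident macrophages, averaged 1.11, 0.658 and 1.395 CP10K in the same cells with Ccl8 and 0.115, 0.251 and 0.175 in those without. These means are over cells within a library and were not tested.

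**Figure D4:**
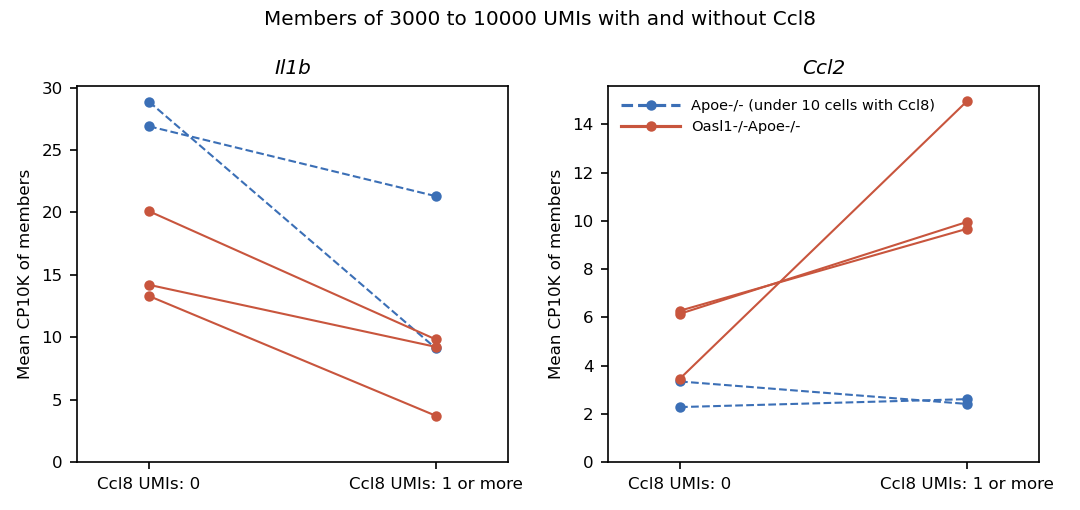
Points give mean CP10K (vertical axes) of Il1b and Ccl2 in members of 3000 to 10000 UMIs without and with a Ccl8 UMI, joined by a line for each of the 5 libraries (blue dashed, Apoe-/- libraries with 4 and 6 Ccl8-containing cells; red, Oasl1-/-Apoe-/- libraries). Il1b was lower in cells with Ccl8 in each library, and Ccl2 was higher in the 3 Oasl1-/-Apoe-/- libraries.

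The neutrophil attractants fell, though less firmly. Cxcl2 stood at 54.2 and 52.6 against 33.5, 35.8 and 42.1 CP10K (-0.53 ± 0.09, adjusted p = 0.00873), with adjusted p-values of 0.0738 and 0.0556 without Oasl1-/-Apoe-/- replicate 1 or 2 and of 0.274 on the mean of the deposited log values. Cxcl1 stood at 10.1 and 5.97 against 2.03, 4.70 and 2.70 CP10K (-1.38 ± 0.30, adjusted p = 0.0348, 0.187 or 0.136 without replicate 1 or 3, and up to 0.252 over the alternatives). Ccl3, a macrophage inflammatory protein, stood at 16.1 and 13.5 against 10.8, 8.53 and 10.1 CP10K (-0.59 ± 0.11, adjusted p = 0.018), lost at 0.0648, 0.0845 and 0.0765 without replicate 1, 2 or 3 and at 0.922 on the deposited log values. The Ccl3 call was also lost with none of the interferon genes allowed in members and in cells of 3000 to 10000 UMIs alone.

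**Figure D5:**
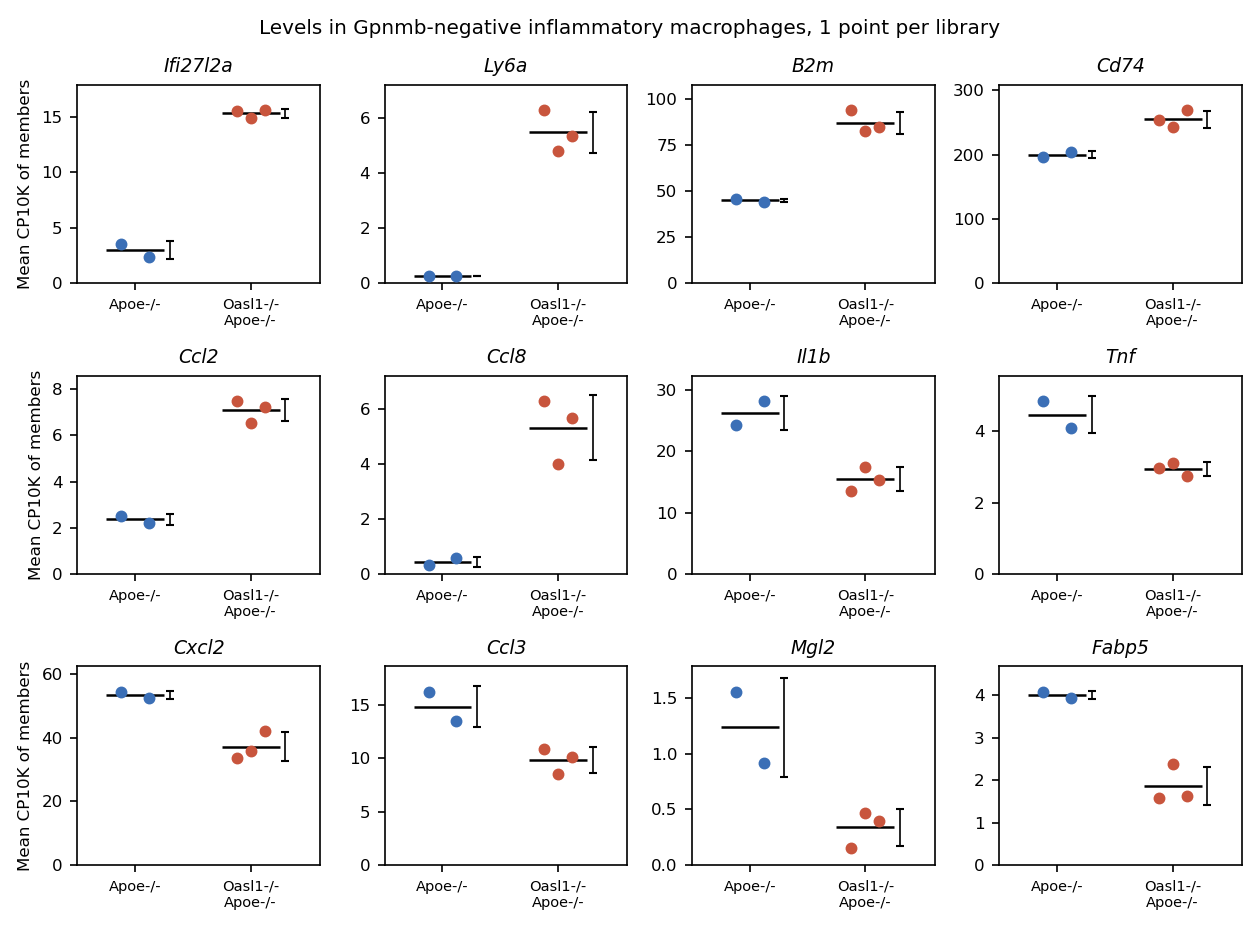
Points give the mean CP10K of members in each library (vertical axes from 0) for 12 genes, with a line at the group mean and a bar of 1 SD beside it, over 2 Apoe-/- and 3 Oasl1-/-Apoe-/- libraries. Ifi27l2a, Ly6a, B2m, Cd74, Ccl2 and Ccl8 sit higher in the Oasl1-/-Apoe-/- libraries, and Il1b, Tnf, Cxcl2, Ccl3, Mgl2 and Fabp5 sit lower. No panel shows overlap between groups, but all 12 genes were chosen among those past the threshold, and some of them for not overlapping. Libraries of the groups did not overlap for 35.2% of all tested genes.

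Receptors and complement showed a few rises. Of 12 tested Fc and scavenger receptor genes, 3 were higher and 0 lower, against 2.01% and 1.38% of all tested genes. Fcgr4, an activating Fc receptor, rose from 1.51 and 1.68 to 3.23, 2.67 and 3.35 CP10K (0.93 ± 0.13, adjusted p = 0.00348), and Fcgr1, the high-affinity receptor, from 1.58 and 1.31 to 2.71, 2.53 and 2.69 (0.85 ± 0.12, adjusted p = 0.0039). Without Oasl1-/-Apoe-/- replicate 1 the adjusted p was 0.0554 for Fcgr4 and 0.0616 for Fcgr1, and that of Fcgr4 reached 0.0903 over the stricter choices of members. Fcer1g, their shared signalling chain, stood at 41.3 and 41.2 against 48.8, 48.4 and 48.7 CP10K (adjusted p = 0.0425, and 0.185 to 0.223 without 1 of the Oasl1-/-Apoe-/- libraries). Of 9 complement genes tested, C4b alone passed, from 1 UMI in both Apoe-/- libraries together to 0.370, 0.264 and 0.499 CP10K (adjusted p = 0.00123). C4b kept this call in all 20 alternatives in which it could be fitted. It was read in 0.524% and 9.21% of members and in 3.47% and 8.47% of smooth muscle cells, and the part of free RNA was not tested.

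Few monocyte genes passed the test. Of 9 tested, the interferon-responsive Ms4a4c and the classical monocyte marker Ly6c2 were higher, against 2.01% of all genes called higher. Ms4a4c stood at 0.364 and 0.0799 against 1.29, 1.12 and 1.03 CP10K (adjusted p = 0.00713, and 0.0908 without Oasl1-/-Apoe-/- replicate 1). Ly6c2 stood at 0.0404 and 0.0622 against 0.268, 0.221 and 0.322 CP10K (adjusted p = 0.0107, and 0.115, 0.0544 and 0.107 without replicate 1, 2 or 3). Ccr2, the receptor for CCL2, was read in 7.33% of Apoe-/- members (95% Wilson interval 4.42 to 11.9%) and 8.62% of Oasl1-/-Apoe-/- members (6.91 to 10.7%). Spread between libraries is not part of these intervals.

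Lipid, resident-like and microglia genes mostly stayed within the error. Among all tested genes, 2.01% were called higher and 1.38% lower. Of 20 lipid-handling genes tested, Fabp5 alone passed, falling from 4.07 and 3.94 to 1.58, 2.39 and 1.64 CP10K (-1.10 ± 0.17, adjusted p = 0.00467, and 0.0554 without Oasl1-/-Apoe-/- replicate 1 or 0.0870 with at least 3 surface genes). Of 9 resident-like genes, Mgl2 alone passed. Mgl2 fell from 1.55 and 0.919 to 0.150, 0.465 and 0.399 CP10K (-1.80 ± 0.37, adjusted p = 0.0268), and was lost at 0.0719 and 0.0667 without Oasl1-/-Apoe-/- replicate 1 or 3. It was read in 23.2% and 17.7% of Apoe-/- members and in 3.11%, 3.81% and 6.69% of Oasl1-/-Apoe-/- members. The 8 microglia genes tested had a median difference of -0.04, and their list summed to 27.9 to 30.5 CP10K in all libraries. Among 10 pattern recognition genes, Ly96, the co-receptor of TLR4, was higher (adjusted p = 0.043) and Clec4n, the lectin dectin-2, lower (adjusted p = 0.0482), and each lost its call in 12 alternatives, with adjusted p-values up to 0.450 and 0.569.

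Some chaperone genes rose and many ribosomal protein genes fell. Of 20 immediate early and stress genes, 6 were higher, 0 lower and 14 not past the threshold, against 2.01% of all genes called higher. The list had a median of 0.02, and the 6 higher genes were chaperones except the phosphatase gene Dusp1. Hspa8, the constitutive heat shock cognate, rose from 20.2 and 21.8 to 34.3, 33.4 and 33.0 CP10K (0.68 ± 0.06, adjusted p = 0.000327) and held in all 21 alternatives, while the list kept 1 call without any 1 of the Oasl1-/-Apoe-/- libraries. Of 79 ribosomal protein genes tested, 25 were lower and 0 higher, with a median of -0.20, against 1.38% of all genes called lower. Rpl12, a protein of the large subunit, stood at 12.3 and 12.8 against 7.91, 8.03 and 8.15 CP10K (-0.64 ± 0.08, adjusted p = 0.00123). The list summed to 1464 and 1544 CP10K in Apoe-/- and to 1298, 1303 and 1348 in Oasl1-/-Apoe-/- members. Median mitochondrial shares were 2.26% and 2.37% against 2.04%, 2.10% and 1.98% (exact two-sided permutation test, p = 0.1, the smallest possible). The part of RNA quality in these values was not tested. Under median-of-ratios scaling 18 ribosomal genes were lower, and without Oasl1-/-Apoe-/- replicate 1, 2 or 3 there were 7, 8 and 8.

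Some calls moved with markers of other cells. Fibroblast markers summed to 0.583 and 0.819 CP10K in Apoe-/- members and to 1.62, 3.20 and 2.24 in Oasl1-/-Apoe-/- members, and 2 of 5 passed, Dcn and Lum. Dcn, a matrix proteoglycan of fibroblasts, stood at 0.0353 and 0.389 against 0.848, 1.48 and 1.08 CP10K, and Timp1, a protease inhibitor, at 0.0554 and 0.0981 against 0.390, 1.54 and 1.28. The 5% of Oasl1-/-Apoe-/- members richest in each gene held 99.2% of the Dcn and 99.4% of the Timp1 UMIs. Setting aside cells with markers of another lineage ended the Timp1 call, and cells of 3000 to 10000 UMIs alone ended both, with adjusted p-values up to 0.529 for Dcn and 0.394 for Timp1 over the alternatives. Smooth muscle markers summed to 32.7 and 11.1 CP10K against 9.43, 6.51 and 8.71, and none of the 5 passed with limma. Hbb-bs, a globin gene, fell from 0.994 and 8.50 to 0.356, 0.408 and 0.373 CP10K, with the second Apoe-/- library the highest, and Hba-a1 and Hba-a2 were lower too. The Hbb-bs call was lost at 0.219, 0.136 and 0.131 without Oasl1-/-Apoe-/- replicate 1, 2 or 3. The endothelial and tumour-associated tetraspanin-like gene Tm4sf1 was lower at 0.884, 0.415 and 0.749 against 1.36 and 1.57 CP10K, and lost its call in 9 of 21 alternatives.

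Gm43301, annotated as an antisense transcript, had the largest fall. It stood at 1.19 and 0.858 CP10K in Apoe-/- members and had 0 UMIs in the 847 Oasl1-/-Apoe-/- members, at least 150-fold lower with 3 UMIs over the group as the floor. Gm43301 was likewise read in 0 of 600 Gpnmb-positive macrophages and 0 of 4688 smooth muscle cells of those libraries, against 62.8% and 28.8% in the Apoe-/- libraries. It lies at chr5:122581469-122584853 on the plus strand, 7.64 megabases from Oasl1. Within 10 megabases of Oasl1, 10 of 113 other tested genes passed, Gm43301 among them (8.85%, against 3.38% of all). This window was chosen after the values were seen. The 5 higher were the oligoadenylate synthetase family genes Oasl2, Oas1a and Oas1g, with Selplg and Dynll1. The 5 lower were Gm43301, the ribosomal protein genes Rpl5 and Rplp0, Gltp and Rilpl2. Interferon and ribosomal protein genes also moved elsewhere in the genome, and their part in this share was not tested. How strand was counted is not given in the sources used here, and the part of reads from the opposite strand was not tested.

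Gpnmb-positive macrophages of the same libraries went through the same fit, and 390 of 6159 genes passed (6.33%). Of the 216 genes called in members, 200 were tested there, and 131 passed in both classes, 130 of them in the same direction. Among 22 inflammatory genes tested in Gpnmb-positive macrophages, 5 were lower and 2 higher, and among 7 MHC class II genes, 6 were higher and 0 lower. The 2 classes come from the same 5 libraries, so their values stand side by side and are not independent. Ifi27l2a went from 0.927 to 9.55 CP10K there and Ly6a from 0.0561 to 3.26, beside 2.94 to 15.3 and 0.242 to 5.48 in members. Il1b stood at 4.20 and 3.44 CP10K (adjusted p = 0.665), beside 26.2 and 15.5 in members. Ccl3 stood at 2.85 and 3.69 CP10K (0.36, adjusted p = 0.0414), beside 14.8 and 9.82.

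The genotype difference was then tested between the classes within libraries. Of 5866 genes tested in both classes, 0 passed with limma (0%), and 555 had an unadjusted p under 0.05 (9.46%), with a smallest adjusted p of 0.474 and a median standard error of 0.244 on the log2 scale. The largest contrasts among chemokines were those of Ccl8, with a difference of 1.85 between the classes, and Cxcl1, with -1.80, each at an adjusted p of 0.474. For Il1b the difference was -0.56 (adjusted p = 0.691). No genotype effect can therefore be called particular to Gpnmb-negative inflammatory macrophages from these 5 libraries, and a p over the threshold does not show that the classes responded alike.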

How the data were processed

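The authors sequenced 10x Chromium 3′ v2 libraries, mapped them to mm10 with Cell Ranger 3.1.0 and processed them with Seurat 4.0.3. The deposited values are natural log (ln) values of 1 plus UMIs per 10000, for 16498 genes in 18260 cells already filtered to more than 200 genes and less than 10% mitochondrial UMIs. Values were returned to CP10K, and UMIs were recovered from the smallest value of each cell (100% whole within 0.01). Doublets were not called here. Member means per library were fitted as log2(CP10K + 0.05) with limma 3.58.1 in R 4.3.3 (trend, Benjamini-Hochberg adjustment) for genes of at least 0.1 CP10K, leaving out the 18 rule genes. This filter was on the mean over all 5 libraries, so low genes raised in the 3 Oasl1-/-Apoe-/- libraries passed it more readily. Genes with 0 UMIs in 1 group passed it through the other group alone. Because cells are not replicates, n is 2 and 3 libraries of pooled mice. The source gives 6 mice, without saying whether per group or per library, and p-values measure the spread between these libraries. Named genes were Oasl1, rule genes and Ms4a7, the 10 largest calls per direction with libraries that do not overlap and 0.5 CP10K in 1 group, and up to 4 or 2 calls per list; other genes named beside them were chosen after their values were seen. Ribosomal kinases were left out of the ribosomal list. The members and lists were chosen with earlier results of these data known. The fit was tested on simulated data. A gene that the naming rule selects is not reported here. Replicate numbers were checked for pairing: deviations of same-numbered libraries correlated at 0.03 and 0.00, and the main fit used no block. The deviations of 2 Apoe-/- libraries from their mean mirror each other, so this check could not show whether libraries were paired. Promoters came from RefSeq, gene positions from GENCODE M21.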

Additional observations from a re-analysis of the deposited data

How the results depend on the processing

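The number of genes past the threshold in Gpnmb-negative inflammatory macrophages was 216 and lay between 149 and 289 in all alternatives that kept the 5 libraries except that without a filter on low genes, which gave 127. It ran from 56 to 1178 when 1 library was left out; where this left 1 Apoe-/- library, its spread was assumed equal to that of the other group. In Gpnmb-positive macrophages the count was 390 and ran from 240 to 422 with 1 library left out. The count for the difference between classes was 0 in all alternatives run. The share of members among all cells differed by 6.34 percentage points, which became 5.58 with at least 3 surface genes, 4.39 with none of the interferon genes, 7.69 with no condition on them and 7.25 in cells of 3000 to 10000 UMIs. Among C1q-high macrophages the difference of 15.3 points became 7.23, 21.1 and 19.8 in the latter 3. The replicate number as a block gave 272 genes (145 higher and 127 lower). Whether same-numbered libraries share more than a number could not be told from their deviations. Of 53 named genes, 22 kept their call in each alternative run on them and none reversed; of 1103 values, 952 kept the call and 151 lost it. With 191 Apoe-/- members, low genes rest on few UMIs, which limits the precision of their differences.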
